A study of Homo sapiens with 24 samples.

Results

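SWI/SNF is a chromatin remodelling complex in which an ATPase, either SMARCA4 (BRG1) or SMARCA2 (BRM), uses ATP to slide or evict nucleosomes. In the best known forms, SMARCB1, SMARCC1, SMARCC2, SMARCE1 and one of the SMARCD proteins form a core around it. Most positions can be taken by one of several paralogs, so that cell types differ in the forms of the complex they assemble. ARID1A or ARID1B marks the canonical form, called BAF, and ARID2 the form called PBAF. Several subunits are frequently mutated in cancer.

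The mRNAs of 10 SWI/SNF subunits were followed, out of 13107 genes that all 4 deposited tables list. The genes were taken by symbol (SMARCA4, SMARCA2, SMARCB1, SMARCC1, SMARCC2, SMARCD1, SMARCD2, SMARCD3, SMARCE1 and ARID1A), and all 10 had a row in each of the tables. The list was chosen by the authors' fold change of SMARCA4 between HCT116 5/4 and its parental line, to which the partners were added by their place in the complex. That contrast is therefore not a finding here, and its values are not given.

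HCT116 is a human colon carcinoma cell line and RPE1 a retinal pigment epithelium line immortalized with hTERT, and an asterisk marks lines with stable expression of histone H2B tagged with GFP. The samples are HCT116 and its derivative HCT116 5/4, tetrasomic for chromosome 5, HCT116* and HCT116* 8/3 c7, a single clone trisomic for chromosome 8, RPE1 and RPE1 5/3 12/3, trisomic for chromosomes 5 and 12, and RPE1* and RPE1* 21/3, trisomic for chromosome 21. Each line has 3 libraries, 24 in all. HCT116 5/4 came from another laboratory. The paper's list of lines gives that laboratory for its parental HCT116 too, while its methods name the American Type Culture Collection for HCT116. In that list HCT116* derives from HCT116 of the collection. The other aneuploid lines were made by transfer of a chromosome into the parental cells, and RPE1 5/3 12/3 gained chromosome 12 spontaneously.

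Each table holds, for each gene, the mean of the normalized read counts over the 6 libraries of an aneuploid line and its parental line together, and the authors' own comparison of both lines, which was not used here. The question of the study, how an aneuploid line differs from its parental line, can therefore not be answered for these subunits from the values given below. What the pooled means show is the level of each subunit in each pair of lines. They carry no standard deviation, no test was made, and whether levels that lie close together differ beyond the spread of libraries is unknown. The tables were normalized separately, so a level set across tables is given as parts per 1000000 (ppm) of the summed means of its table. These sums lay between 18889290.4 and 23011802.7 normalized counts, and the depth of single libraries is unknown from the tables. Where 4 values stand in a row, the first is from the HCT116 5/4 table, the second from the HCT116* 8/3 c7 table, the third from the RPE1 5/3 12/3 table and the last from the RPE1* 21/3 table.

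The labelled lines were compared with markers of their tissue. Of 9 colon epithelium markers, 6 had a row in both HCT116-derived tables, against 4 and 2 in the RPE1-derived ones. Of 10 markers of pigment epithelium and mesenchymal cells, 9 had a row in both RPE1-derived tables, but 7 and 6 had one in the HCT116-derived tables too. A mean of at least 10 was reached by 8 and 6 of these 10 in the RPE1-derived tables and by 5 in each HCT116-derived table. Having a row thus hardly separates the backgrounds for this list. EPCAM and CDH1, adhesion molecules of epithelial cells, had authors' means of 4192 and 1685 in the HCT116 5/4 table and of 5683 and 2534 in the HCT116* 8/3 c7 table. In the RPE1-derived tables EPCAM had a mean of 4.77 in the RPE1 5/3 12/3 table, and CDH1 had no row in either. The keratins KRT8 and KRT18 were abundant in both backgrounds. KRT8 was at 3281 and 2975 ppm in the HCT116-derived tables against 853 and 885 ppm in the RPE1-derived ones. KRT18 was at 1458 and 1030 ppm against 542 and 711 ppm. CDX1 and VIL1 had no row in any table, and LGR5 none in the HCT116-derived ones. The mesenchymal genes VIM and FN1 were 580-fold and 386-fold higher in ppm in the RPE1-derived tables. RPE65, an enzyme of the visual cycle that defines pigment epithelium in the eye, had means of only 10.4 and 4.58 in the RPE1-derived tables, below the 287 and 194 of the HCT116-derived tables, and TYRP1 had no row. COL1A2, listed as a marker of RPE1, had means of only 4.39 and 8.78 in the RPE1-derived tables and no row in the HCT116-derived ones. The gained chromosomes differed in the pooled means by unequal amounts. Genes on chromosome 12 had a median log2 level 0.31 higher in the RPE1 5/3 12/3 table than in the RPE1* 21/3 table, relative to genes outside the gained chromosomes (563 genes), and genes on chromosome 5 had one 0.44 higher in the HCT116 5/4 table than in the HCT116* 8/3 c7 table (464 genes). Genes on chromosome 5 were 0.31 higher in the RPE1 5/3 12/3 table. For the chromosomes gained in the other table of each background, genes on chromosome 21 were at -0.37 in the RPE1 5/3 12/3 table relative to the RPE1* 21/3 table (88 genes), and genes on chromosome 8 at only -0.13 in the HCT116 5/4 table relative to the HCT116* 8/3 c7 table (343 genes).

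**Figure D1:**
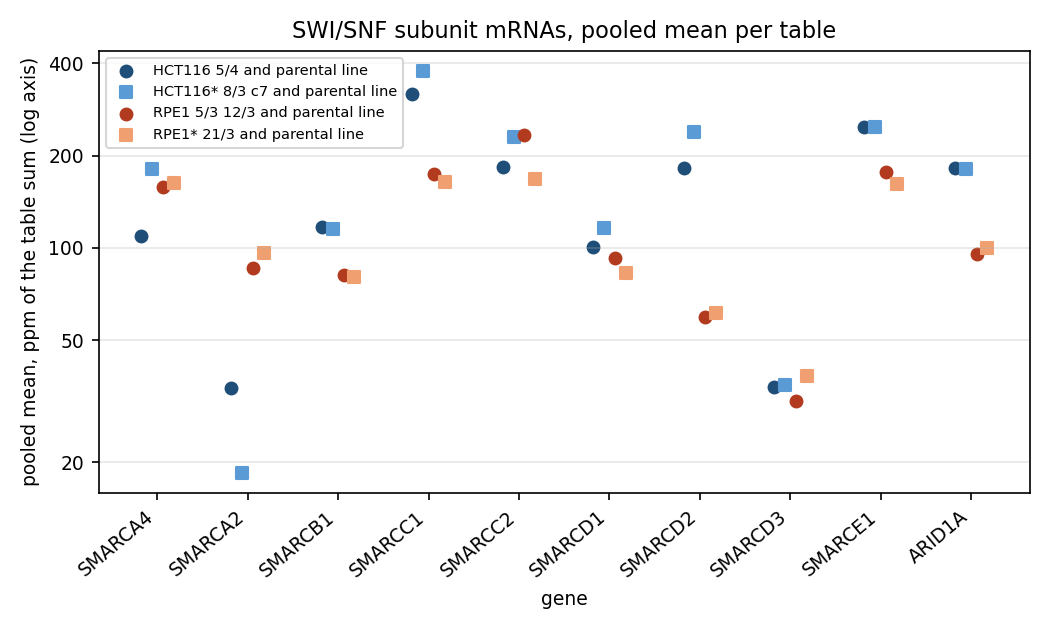
Pooled mean of each subunit mRNA in ppm of the summed means of its table (log axis), with 1 point for each table, which covers an aneuploid line and its parental line. SMARCA2 sits between 18.5 and 34.9 in the HCT116-derived tables and between 86.0 and 96.1 in the RPE1-derived ones, while SMARCD2 shows the opposite order.

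Of the ATPases, SMARCA2 was higher in both RPE1-derived tables under either scaling of the tables. SMARCA4 overlapped between the backgrounds when scaled to the table sums, and was higher in both RPE1-derived tables when scaled to the median shared gene. SMARCA4 lies on chromosome 19 of GRCh37 from 11071608 to 11190102 and SMARCA2 on chromosome 9 from 1980290 to 2193624, both on the plus strand and on no gained chromosome. The authors' mean of SMARCA2 was 672 in the HCT116 5/4 table, 371 in the HCT116* 8/3 c7 table, 1979 in the RPE1 5/3 12/3 table and 1816 in the RPE1* 21/3 table. In ppm these means were 34.9, 18.5, 86.0 and 96.1. Both RPE1-derived tables thus lay above both HCT116-derived ones, with a geometric mean 3.58-fold higher.

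The authors' mean of SMARCA4 was 2100.3 in the HCT116 5/4 table, 3623 in the HCT116* 8/3 c7 table, 3622 in the RPE1 5/3 12/3 table and 3071 in the RPE1* 21/3 table. The levels were 109, 181, 157 and 163 ppm. The HCT116 5/4 table was the lowest, the RPE1-derived tables lay together in the middle, and the 2 backgrounds overlapped in ppm. The HCT116 5/4 table includes the libraries whose contrast led to the choice of the genes, so its low SMARCA4 level, and each ratio or difference that uses it, is a description and no independent observation.

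Between the tables of the HCT116 background, SMARCA4 was 1.66-fold higher in ppm in the HCT116* 8/3 c7 table, the value that the choice of the genes favoured. SMARCA2 was 1.88-fold higher in the HCT116 5/4 table, or 0.91 on the log2 scale, where the median of the 11939 genes whose mean reached 10 in every table differed by 0.20. The HCT116-derived tables differ in the gained chromosome, the tagged histone and the parental culture at once, and these cannot be told apart in pooled means. Between the RPE1-derived tables SMARCA4 differed by 0.047 and SMARCA2 by 0.16 on the log2 scale, where the median gene differed by 0.16.

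Divided by the summed length of the annotated exons of each gene, SMARCA4 was the more abundant ATPase mRNA in every table. The ratio of SMARCA4 to SMARCA2 per kb was 3.83 in the HCT116 5/4 table and 11.9 in the HCT116* 8/3 c7 table. It was 2.24 in the RPE1 5/3 12/3 table and 2.07 in the RPE1* 21/3 table. SMARCA2 made up 20.7% and 7.73% of the summed ATPase level per kb in the HCT116-derived tables, and 30.9% and 32.6% in the RPE1-derived ones. With coding lengths the ratios were lower, at 2.96, 9.24, 1.73 and 1.60. The shares of SMARCA2 were then 25.2%, 9.77%, 36.6% and 38.4%. The order of the tables in this ratio depends neither on the gene lengths nor on the scaling of the tables, since both cancel.

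**Figure D2:**
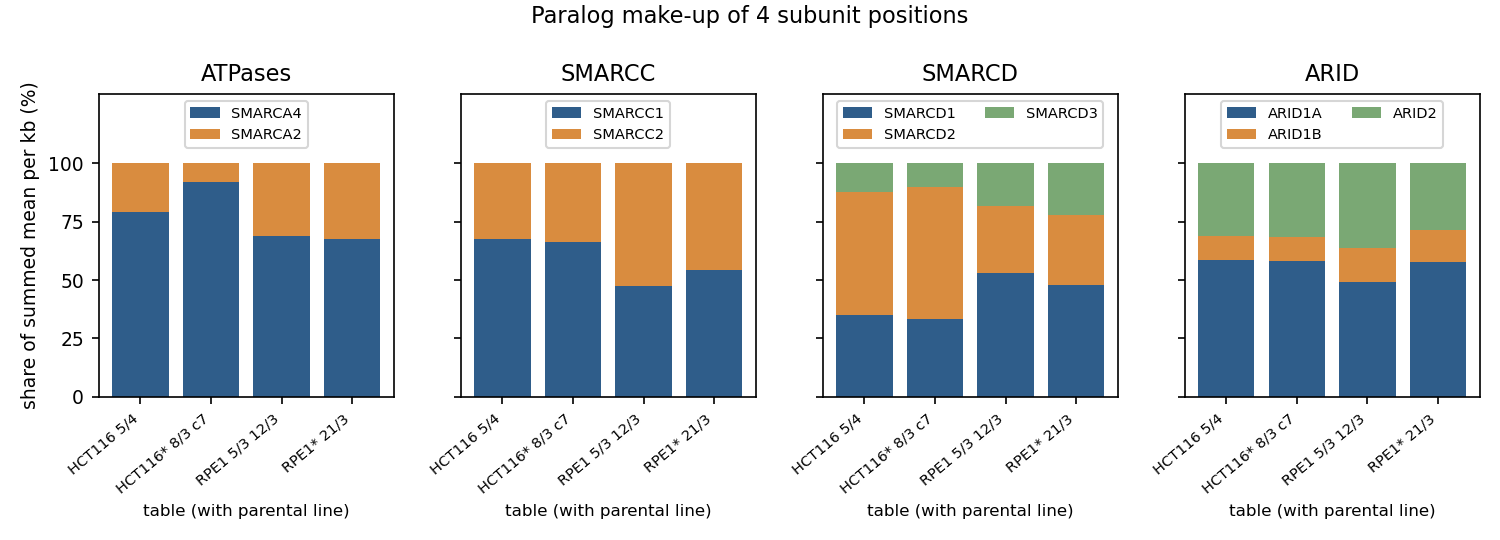
Share of each subunit in the summed level per kb of exon (percent, bars from 0) of its group, for 4 groups of subunits and each table of an aneuploid line and its parental line. The ARID group joins subunits of BAF and PBAF, and its order depends on the length used. In the RPE1 5/3 12/3 table ARID1B and ARID2 hold 14.3% and 36.4% with exon lengths, but 31.6% and 28.5% with coding lengths. SMARCD2 holds 52.7% and 56.6% of the SMARCD level in the HCT116-derived tables against 28.6% and 29.7% in the RPE1-derived ones, and the share of SMARCA2 is larger in the RPE1-derived tables.

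The SMARCD subunits (BAF60 proteins), which connect the complex to transcription factors, had a different make-up in the 2 backgrounds. SMARCD2 lies on the minus strand of chromosome 17 from 61909441 to 61920425. Its authors' means were 3515 and 4775 in the HCT116-derived tables, and 1375 and 1163 in the RPE1-derived ones. SMARCD2 was thus at 182 and 238 ppm in the HCT116-derived tables and at 59.8 and 61.6 ppm in the RPE1-derived ones, without overlap and 3.44-fold higher in the former.

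SMARCD1, on chromosome 12, had authors' means of 1943, 2333, 2132 and 1562. Its levels were 101, 116, 92.7 and 82.7 ppm, slightly higher in the HCT116-derived tables. SMARCD3, on chromosome 7, had means of 679, 718, 728 and 724, or 35.2, 35.8, 31.7 and 38.3 ppm. In ppm its backgrounds overlapped. SMARCD3 was 1.02-fold apart between the HCT116-derived tables and 1.21-fold apart between the RPE1-derived ones, where 70.8% of the genes were closer together.

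Per kb SMARCD2 exceeded SMARCD1 in the HCT116-derived tables, where the ratio of SMARCD1 to SMARCD2 was 0.66 and 0.59. In the RPE1-derived tables SMARCD1 exceeded SMARCD2, with ratios of 1.86 and 1.62. The length of the MANE Select transcript, the reference transcript of a gene, moved these 4 ratios to 0.41, 0.37, 1.16 and 1.01, so that both mRNAs were level in the RPE1* 21/3 table. SMARCD3 was the least abundant of the SMARCD mRNAs in every table, with 12.2% and 10.2% of their summed level in the HCT116-derived tables and 18.1% and 22.2% in the RPE1-derived ones.

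SMARCC1 (BAF155) and SMARCC2 (BAF170) are scaffold proteins of the core. SMARCC1, on chromosome 3, had authors' means of 6112 and 7573 in the HCT116-derived tables and of 4004 and 3109 in the RPE1-derived ones. The levels were 317, 378, 174 and 165 ppm, so that the HCT116-derived tables lay 2.04-fold higher without overlap. SMARCC2, on chromosome 12, had means of 3529, 4620, 5351 and 3167 and levels of 183, 230.3, 233 and 168 ppm, with overlap of the backgrounds. The ratio of SMARCC1 to SMARCC2 per kb was 2.08 and 1.97 in the HCT116-derived tables, 0.90 in the RPE1 5/3 12/3 table and 1.18 in the RPE1* 21/3 table. Which of both was more abundant in the RPE1* 21/3 table depends on the gene length used, since with the MANE Select transcript the ratios were 1.39, 1.31, 0.60 and 0.79.

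SMARCC2 and SMARCD1 are the only members on a gained chromosome. In the RPE1 5/3 12/3 table, which includes cells trisomic for chromosome 12, SMARCC2 was 1.39-fold and SMARCD1 1.12-fold higher in ppm than in the RPE1* 21/3 table. The corresponding log2 differences were 0.47 and 0.16, on either side of the median of 0.29 for all genes on chromosome 12. ARID2, also on chromosome 12 and not a member, was 1.42-fold higher. BCL7A, another subunit on chromosome 12 outside the members, went the other way and was 1.27-fold higher in the RPE1* 21/3 table. The part of the extra chromosome in these differences was not tested.

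SMARCB1 (SNF5) and ARID1A were nearly equal between the tables of one background. SMARCE1 (BAF57) was nearly equal between the HCT116-derived tables and 1.10-fold apart between the RPE1-derived ones. SMARCB1, a core subunit and tumour suppressor on chromosome 22, had levels of 117 and 115 ppm in the HCT116-derived tables and 81.3 and 80.2 ppm in the RPE1-derived ones, from authors' means of 2257, 2308, 1872 and 1514. SMARCE1, a DNA-binding HMG box subunit on chromosome 17, was at 249 and 248 ppm against 177 and 162 ppm, from means of 4790, 4984, 4078 and 3052. ARID1A, the DNA-binding subunit of the BAF form on chromosome 1, was at 182 and 181 ppm against 95.5 and 100.1 ppm, from means of 3506, 3622, 2197 and 1892. All 3 were higher in ppm in both HCT116-derived tables, by 1.44-fold, 1.47-fold and 1.85-fold, as were 56.6% of all genes. The median gene was itself higher there by 0.35 on the log2 scale. Relative to it, SMARCB1 was at 0.18, SMARCE1 at 0.21 and ARID1A at 0.54.

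Between the HCT116-derived tables SMARCE1 had a log2 difference in ppm of 0.00086, with 0.22% of the genes closer together, and ARID1A one of 0.011. So low a rank depends on the scaling, since genes outside the gained chromosomes had a median of -0.011 between these tables. SMARCB1 and SMARCD3 were also close, at 1.02-fold apart. In the HCT116* 8/3 c7 table SMARCC1 was 1.19-fold, SMARCC2 1.26-fold, SMARCD1 1.15-fold and SMARCD2 1.30-fold higher than in the HCT116 5/4 table. The ratio of SMARCA4 to ARID1A per kb was 0.61 in the HCT116 5/4 table and 1.02 in the HCT116* 8/3 c7 table, against 1.69 and 1.66 in the RPE1-derived ones. With MANE Select transcripts these ratios were 0.92, 1.54, 2.54 and 2.50 in the same order of tables.

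Against all genes, the HCT116-derived tables had the higher levels for most genes when scaled to the table sums, with a median log2 difference of 0.35 over the 11939 genes. FN1 alone took 1.60e+04 and 1.98e+04 ppm of the RPE1-derived tables, against 62.8 and 33.7 ppm of the HCT116-derived ones. The part of FN1 in the median difference was not tested. Of the subunits, 6 of 10 lay higher in both HCT116-derived tables, where 56.6% of all genes did, and 1 lay higher in both RPE1-derived tables, where 25.9% did. At least 2-fold apart were SMARCD2 toward HCT116, a direction in which 15.6% of all genes passed, and SMARCA2 toward RPE1, in which 7.56% did. Read against these shares, the counts do not mark the subunits out from other genes. Relative to the median gene, SMARCA2 had a log2 difference of -2.19, SMARCA4 of -0.54, SMARCD3 of -0.32 and SMARCC2 of -0.29. SMARCD1 was at -0.039, SMARCB1 at 0.18 and SMARCE1 at 0.21. ARID1A was at 0.54, SMARCC1 at 0.69 and SMARCD2 at 1.43.

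**Figure D3:**
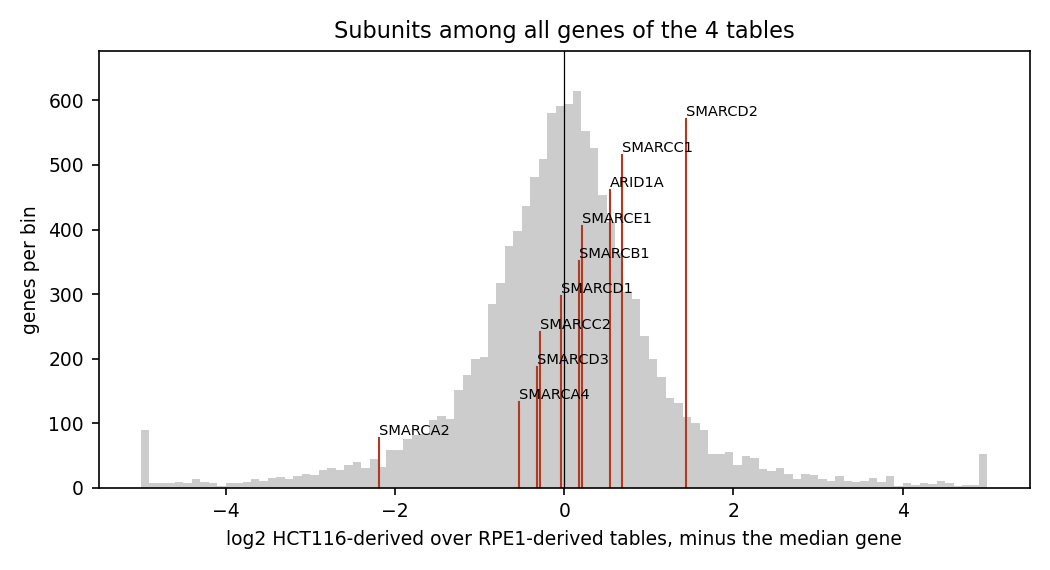
Histogram of the log2 difference between HCT116-derived and RPE1-derived tables for 11939 genes, minus the median gene (values beyond 5 in either direction are drawn in the last bins), with the 10 subunits as red lines of arbitrary height. SMARCA2 at -2.19 and SMARCD2 at 1.43 lie on opposite flanks, and the other 8 subunits lie between -0.54 and 0.69.

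With the tables scaled to their median shared gene instead, 5 of 10 subunits lay higher in both HCT116-derived tables (40.2% of all genes) and 3 in both RPE1-derived ones (39.3% of all genes). These 3 were SMARCA2, SMARCA4 and SMARCD3. SMARCD2 and SMARCA2 were still the 2 subunits at least 2-fold apart, toward HCT116 (9.69% of all genes) and toward RPE1 (10.7%). The mean difference of SMARCA4 was toward RPE1 under both scalings, but it uses the HCT116 5/4 table, whose contrast led to the choice of the genes. With scaling to the sums, the HCT116* 8/3 c7 table lay above both RPE1-derived tables (181 against 157 and 163 ppm). SMARCC2, SMARCD1 and SMARCD3 had a small difference toward HCT116 under one scaling and toward RPE1 under the other.

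Of 19 further subunits, 16 had a mean of at least 10 in all tables, and their median log2 difference was 0.60 with scaling to the sums, against 0.35 for all genes. DPF1, a PHD finger subunit best known from neurons, was at 9.67 and 8.74 ppm in the HCT116-derived tables and at 3.24 and 3.88 ppm in the RPE1-derived ones. SS18L1, the neuronal paralog of SS18, was at 32.2 and 31.2 ppm against 14.4 and 15.4 ppm. These were 2 of the 16 further subunits, where 15.6% of all genes were at least 2-fold higher in the HCT116-derived tables, and neither was with scaling to the median gene. ACTB, the beta-actin that is also a subunit, went the other way, with 2557 and 3067 ppm against 6114 and 7533 ppm. It was 2.42-fold higher in the RPE1-derived tables as a geometric mean, and passed the 2-fold threshold between every pair of tables only with scaling to the median gene (10.7% of all genes). DPF3, a PHD finger subunit of heart and muscle, had authors' means of 13.1 and 9.46 in the HCT116-derived tables and of 122 and 144 in the RPE1-derived ones. ACTL6B, the neuronal actin-related subunit, had no row, while ACTL6A, its counterpart in dividing cells, was at 69.0, 66.3, 50.5 and 51.6 ppm. ARID1B, the alternative to ARID1A, was at 91.3, 90.1, 79.8 and 69.96 ppm, and ARID1A exceeded it per kb in every table, by ratios between 3.45 and 5.78. With coding lengths those ratios were between 1.26 and 2.12.

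Among 7 ATPases of other remodellers, CHD3 of the NuRD complex was the only one at least 2-fold apart, toward RPE1, as were 7.56% of all genes (10.7% with scaling to the median gene, where CHD3 passed too). It had 146 and 162 ppm in the HCT116-derived tables and 479 and 406 ppm in the RPE1-derived ones. SMARCA5, the ISWI ATPase, was at 266 and 312 ppm against 157 and 145 ppm. SMARCA1, its paralog, was at 145 and 145 ppm against 160.05 and 159 ppm, and differed much less between backgrounds than SMARCA2.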

How the data were processed

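Total RNA of 8 human cell lines, with 3 libraries each, was sequenced on an Illumina HiSeq2500. The authors removed adapters with cutadapt, mapped reads to hg19 with TopHat2 2.0.10 keeping 1 location per read, counted them on exons of RefSeq genes with featureCounts 1.4.3 and ran DESeq2 on each aneuploid line and its parent, a tool whose version is not given in the sources used here. The deposited signal per gene is a mean of size-factor normalized counts, pooled by the authors over both lines of a table. The other 5 columns of each table hold the authors' own comparison (log2 fold change, its standard error, test statistic, p-value and adjusted p-value) and were not used. The planned count model could not be run, because the tables hold no values of single libraries.

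Means were divided by the table sum (ppm, parts per 1000000), or by the length of the union of annotated exons (GENCODE on GRCh37, the same build as hg19; gene models may differ from RefSeq). The background was the genes whose mean reached 10 in every table, and a gene was called when every table of one background was at least 2-fold above every table of the other. This threshold is descriptive, and no p-value was computed. The interval union was tested on a few hand-written intervals of known total length. For the gained chromosomes, 87.1% of the genes were placed by symbol. All 10 subunits, a list of further subunits and the ATPases of other remodellers were named by symbol and not by value. The members and lists were chosen with earlier results of these data known. Alternatives were scaling to the median shared gene, coding or MANE Select length, and no filter on low means. Python 3.11.15, numpy 2.4.6, pandas 2.3.3 and matplotlib 3.10.9 were used.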

Additional observations from a re-analysis of the deposited data

How the results depend on the processing

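Scaling to the median gene shared by all tables, in place of the table sums, lowered the log2 difference between HCT116-derived and RPE1-derived tables of every subunit by one amount, to -0.52 for SMARCA4, -2.17 for SMARCA2, 0.20 for SMARCB1, 0.70 for SMARCC1, -0.27 for SMARCC2, -0.020 for SMARCD1, 1.45 for SMARCD2, -0.30 for SMARCD3, 0.23 for SMARCE1 and 0.56 for ARID1A. SMARCC2, SMARCD1 and SMARCD3 changed sign. With it, 1157 genes were at least 2-fold higher in the HCT116-derived tables, against 1862, and 1276 in the RPE1-derived tables, against 902. Leaving out the filter on low means gave 2294 and 1090.0 genes.

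With coding length, 4 of 28 ratios of subunits per kb moved by over 1.5 times, all of ARID1A to ARID1B. With the length of the MANE Select transcript, chosen after seeing the data because the union of exons is several times longer than 1 transcript for some subunits, 19 moved by over 1.5 times and 1 changed direction, SMARCC1 to SMARCC2 in the RPE1* 21/3 table (0.79).

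No paired analysis was possible because the columns used carry no single libraries. No replicate was left out. Pooled means hide any difference between an aneuploid line and its parental line.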
